A study of Danio rerio with 6 samples.

Results

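Mitochondrial ribosomal protein genes were examined in cells sorted from zebrafish embryos after exposure to bisphenol A (BPA), a plasticizer with estrogenic activity. Members were all genes of the count table whose Ensembl gene name begins with mrpl or mrps followed by a digit, in either case, which gave 75 of 32520 genes, 47 named for the large subunit and 28 for the small subunit. The name carries the subunit, and the rule used names alone, though the list was chosen with earlier results of these data known. Of these, 74 passed the filter on low counts, 47 large and 27 small. The other one, mrps28 (ENSDARG00000041538), had 0 counts in every library, which at a floor of 3 counts allows up to 0.0974 CPM (counts scaled to a common library size) in any library.

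The cells carried the sp7-eGFP transgene, in which a promoter of the osteoblast transcription factor gene sp7 drives a green reporter, and were labelled as GFP cells and embryonic osteoblasts. The control group held 3 libraries at 4 days post fertilization. The exposed group held 3 libraries of the same age after 200 nM BPA from 24 hours post fertilization, and each arm used 400 embryos. BPA stocks were made in dimethyl sulfoxide, both arms carried the transgene, and whether controls received the solvent is not given in the sources used here. Nor is it given whether libraries of a group came from separate pools, so p values measure the spread between these libraries, which may be technical.

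Total counts were between 30748435 and 43403568 per library. Osteoblast markers went both ways, with 3 of 13 higher, 3 lower and 7 not past the threshold, while bglap, a late osteoblast gene, had 0 counts. Each share was 23.1%, near the 20.1% higher and 18.7% lower of all genes tested. Those 2 values are also the background for the other marker lists here. Summed, the osteoblast markers lay between 9804 and 10050 CPM in control libraries and between 11745 and 11873 CPM in exposed libraries. Markers of other cells were present too. Summed epidermis markers lay between 18930 and 19779 CPM in control libraries and between 36548 and 37499 CPM in exposed libraries, with 8 of 10 genes higher. For skeletal muscle the sums were 30495 to 32353 CPM and 37016 to 37867 CPM, with 12 of 18 genes higher and 5 lower. Leukocyte sums were 231 to 237 CPM and 339 to 348 CPM (11 of 17 higher, 1 lower), and 1 matched leukocyte gene, named MPEG1, was at 0. Liver sums were 9750 to 10122 CPM and 2900 to 2949 CPM, with 12 of 12 genes lower. Chondrocyte sums were 1507 to 1543 CPM and 1192 to 1232 CPM (10 of 13 lower), and neuron sums 475 to 494 CPM and 411 to 428 CPM (6 of 11 lower, 1 higher). Sums of intestine markers were 228 to 245 CPM and 92.3 to 101 CPM (4 of 6 lower), and those of endothelium markers 119 to 133 CPM and 65.7 to 67.1 CPM (6 of 8 lower). Erythroid sums were 417 to 426 CPM and 636 to 653 CPM (4 of 6 higher). The part of these shifts in the values below was not tested. In sorted pools, fewer cells of a type and less RNA per cell cannot be told apart.

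Mitochondria make core subunits of the respiratory chain and ATP synthase on their own ribosomes. Those ribosomes join rRNAs transcribed from mitochondrial DNA to proteins encoded in the nucleus, made in the cytosol and imported. Some of the proteins descend from the bacterial ribosome and others were added in mitochondria. The small subunit reads the mRNA codons, and the large subunit forms the peptide bond and releases the chain at a tunnel exit beside the inner membrane. Roles given below come from mammalian mitoribosome structures and human genetics.

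The members changed little after exposure, and those that passed the test mostly fell. In edgeR's quasi-likelihood test with Benjamini-Hochberg adjustment over 21194 genes, 17 of the 74 tested members were lower in the exposed libraries, 1 was higher and 56 did not pass an adjusted p of 0.05. Across all genes tested, 38.8% were called, 18.7% lower and 20.1% higher. Among members 24.3% were called, 22.97% lower and 1.35% higher, so the share of lower calls was near the background and the share of calls of either kind was below it. The median log2 fold change (exposed against control) was -0.12 over the members and -0.0029 over all genes tested. Of the members, 59 of 74 (79.7%) lay below 0, against 50.3% of all genes tested. None of the 74 changed 2-fold, while 12.9% of all genes tested did. The genes tested were not matched to the members for level. Their control means began at 0 CPM, where folds spread more widely, while those of members lay between 7.18 and 89.4 CPM. All 3 exposed values lay below the 3 control values for 24 members and above them for 3, or 36.5% in all. Of all genes tested 48.4% did not overlap, 23.2% lower and 25.2% higher.

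**Figure D1:**
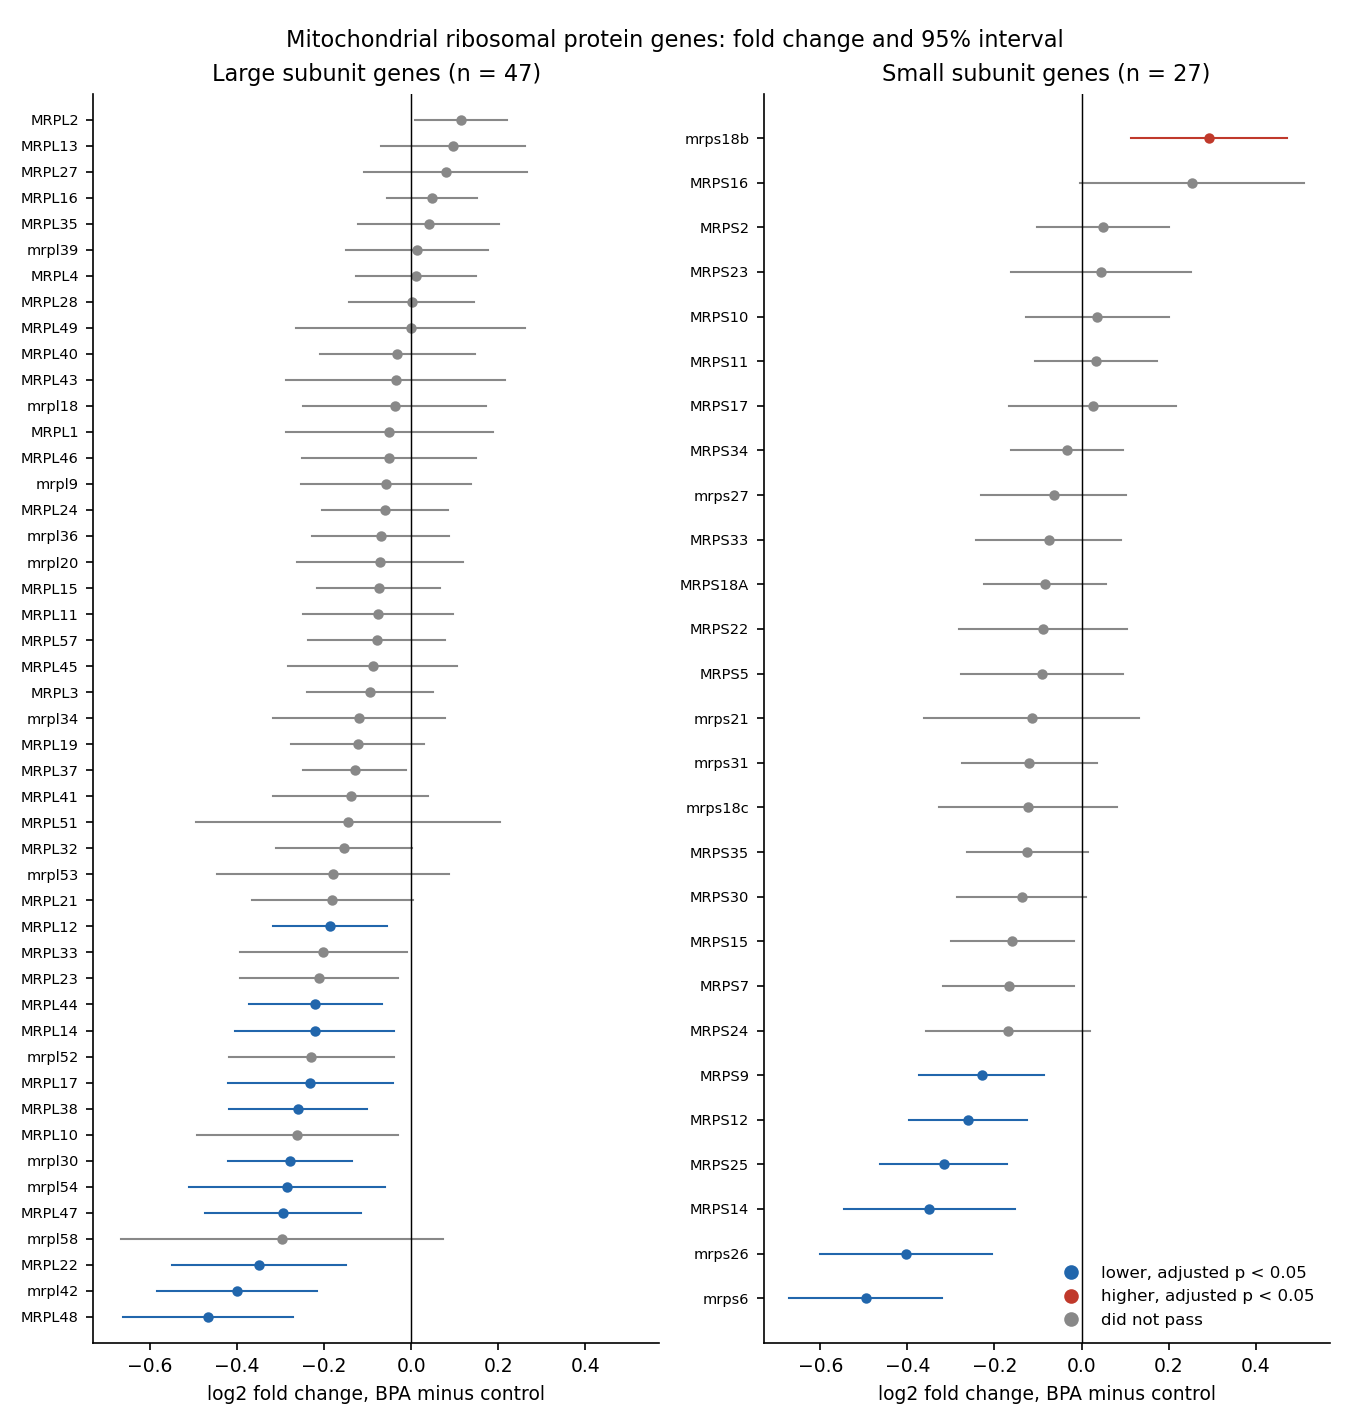
Log2 fold change of each tested member (points, x axis, BPA minus control) with its approximate 95% interval (lines), large subunit genes on the left and small subunit genes on the right, ordered by fold. The 11 large and 6 small subunit genes called lower are blue, mrps18b is the 1 gene called higher (red), and the grey genes that did not pass lie between -0.30 and 0.25.

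The subunits were close to each other. In the large subunit 11 of 47 members fell, 0 rose and 36 did not pass, with a median log2 fold change of -0.12. At an unadjusted p under 0.05 in edgeR, 16 large subunit members were lower and 1 was higher, and DESeq2 also called 0 higher. At that unadjusted p, 4707 of all 21194 genes tested were lower and 5001 higher in edgeR. In the small subunit 6 of 27 fell, 1 rose and 20 did not pass, with a median of -0.11. The middle 50% of log2 fold changes ran from -0.22 to -0.044 for the large subunit, from -0.17 to -0.0035 for the small, and from -0.31 to 0.38 over all genes tested. The count of lower members was smaller in fits with 1 exposed library left out. Without exposed library 1 it was 11, of which 6 were large subunit genes, and without exposed library 2 it was 10, of which 4 were large. Lower calls over all genes were also fewer there, at 15% in both fits, and calls of either kind were at 31.3% and 31.1%.

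**Figure D2:**
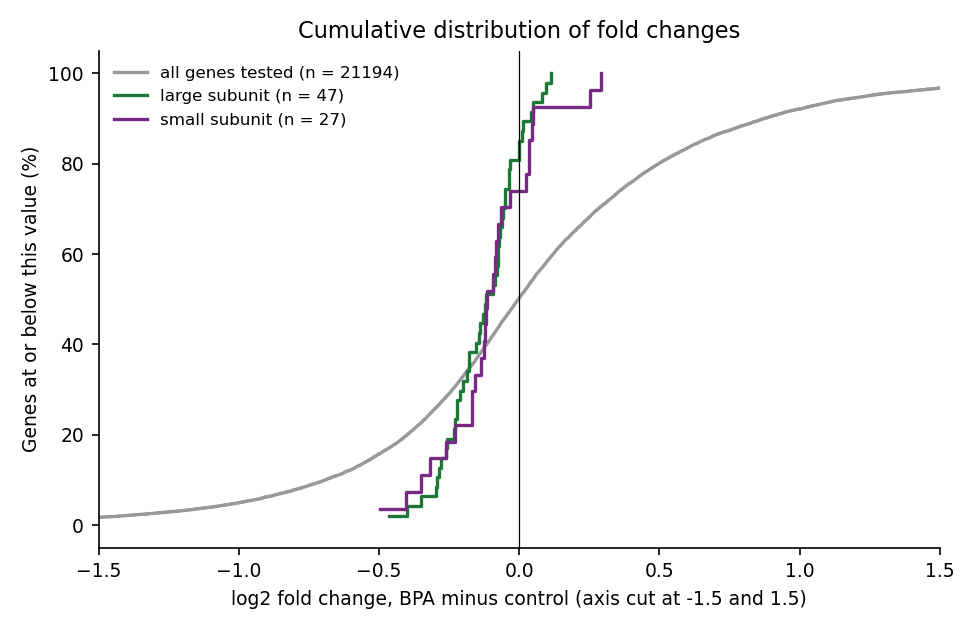
Cumulative share of genes (y axis, %) at or below each log2 fold change (x axis, BPA minus control, cut at -1.5 and 1.5) for all 21194 genes tested, the 47 large subunit and the 27 small subunit genes. Both subunit curves rise within a narrower range than that of all genes and have medians of -0.12 and -0.11. All genes tested include genes at lower levels than any member and were not matched for level.

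Summed over the 47 genes, large subunit transcripts read 1691, 1615 and 1655 CPM in control libraries 1, 2 and 3 and 1497, 1535 and 1572 CPM in exposed libraries 1, 2 and 3. All 3 exposed sums were below all 3 control sums, and the means were 1653 ± 38.0 and 1534 ± 37.5 CPM (SD, n = 3), a difference of -7.19%. For the 27 small subunit genes the control sums were 948, 910 and 908 CPM and the exposed sums 854, 859 and 838 CPM. Again the groups did not overlap, with means of 922 ± 22.9 and 850 ± 11.2 CPM and a difference of -7.76%. No test was made on these sums. The ratio of large to small was 1.79 ± 0.0256 in the control and 1.80 ± 0.0640 in the exposed libraries, and the groups overlapped. Long transcripts weigh more in such sums, so the ratio is not one of molecules. The products of MRPS30 and MRPS18A sit in the large subunit of mammalian mitoribosomes, and with both counted there the ratios were 2.08 and 2.10, with 11 large and 6 small subunit genes lower.

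**Figure D3:**
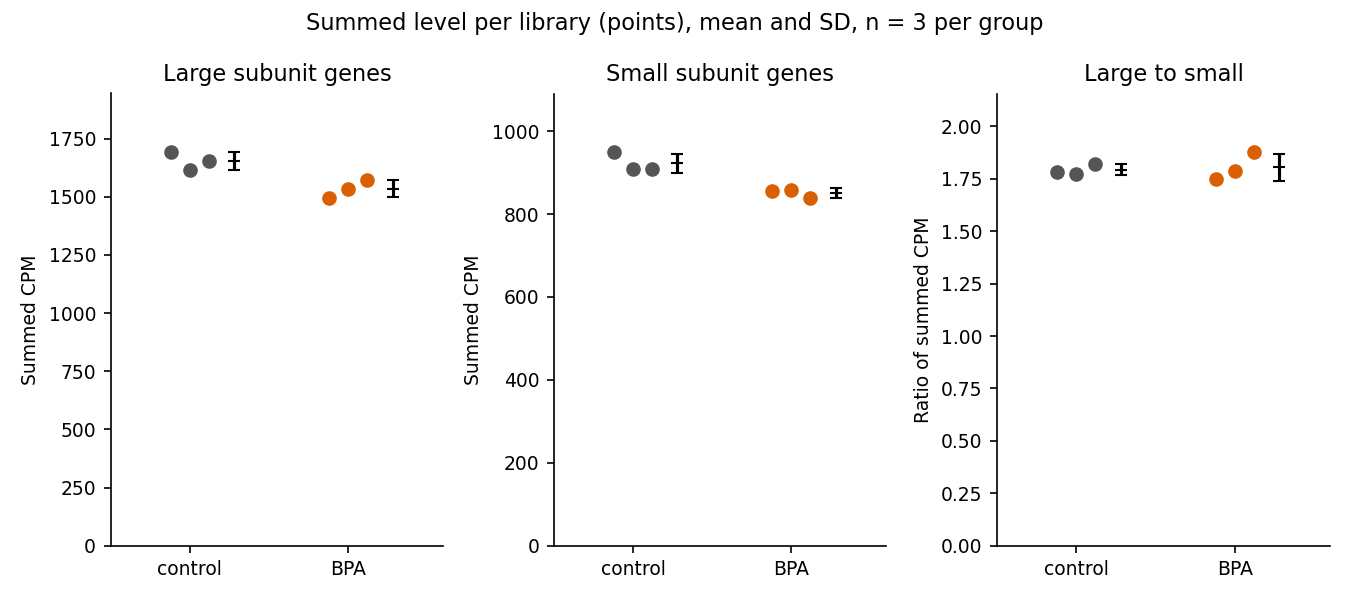
Summed CPM of large (left) and small (middle) subunit genes and their ratio (right), all from 0, in each library (points), with the group mean and SD (bars, n = 3). The exposed points lie below the control points in both sums, at 1497 to 1572 CPM for the large and 838 to 859 CPM for the small subunit, and the ratios overlap.

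In the small subunit, mrps6 (ENSDARG00000039543) had the lowest fold of all members. Its product lies on the platform, beside the path of the mRNA. Control libraries 1, 2 and 3 read 31.1, 34.7 and 35.03 CPM and exposed libraries 1, 2 and 3 read 25.7, 22.8 and 23.02 CPM. Every exposed value was below every control value, and the log2 fold change was -0.50 ± 0.079 SE (edgeR adjusted p = 2.35e-05). The 2 other genes grouped with the platform here, picked after values were seen, did not pass. They were MRPS11 at 48.8 ± 3.04 and 49.9 ± 3.45 CPM (SD, n = 3) and mrps18c at 23.9 ± 2.31 and 21.9 ± 2.22 CPM. Their adjusted p in edgeR were 0.746 and 0.358.

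MRPS12 (ENSDARG00000089836) encodes the protein of the decoding centre, where codon and tRNA are matched. It read 60.5, 57.1 and 52.0 CPM in control libraries 1, 2 and 3, against 48.0, 48.0 and 45.7 CPM after exposure. The groups did not overlap, and the log2 fold change was -0.26 ± 0.068 SE (edgeR adjusted p = 0.00212).

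The head of the small subunit swivels as tRNAs move. Of 5 of its genes with a bacterial counterpart, picked after values were seen, 2 fell and 3 did not pass. Of all 17 members named for the small subunit with a bacterial counterpart, 4 (23.5%) were lower, 1 higher and 12 did not pass. Among all genes tested 18.7% were lower. MRPS14 (ENSDARG00000068305) read 24.6, 24.6 and 26.9 CPM in control libraries 1, 2 and 3, against 20.3, 21.4 and 17.97 CPM after exposure. MRPS9 (ENSDARG00000061505) read 42.0, 42.0 and 43.0 CPM, against 34.6, 37.0 and 36.5 CPM after exposure. Both genes were lower in each exposed library than in any control library. Their log2 fold changes were -0.35 ± 0.086 and -0.23 ± 0.032 SE (edgeR adjusted p = 0.00428 and 0.00965). Leaving out exposed library 3 ended the call of MRPS14 (adjusted p = 0.0512), and leaving out exposed library 1 ended that of MRPS9 (0.0572). MRPS7, a counterpart of bacterial protein S7, was at 40.8 ± 1.00 and 36.3 ± 2.83 CPM without overlap (adjusted p = 0.0745, and 0.0352 once exposed library 3 was left out). MRPS24, the counterpart of bacterial protein S3, was at 34.1 ± 5.72 and 30.3 ± 0.291 CPM (adjusted p = 0.154, and 0.0282 once control library 2 was left out). MRPS10 was at 31.1 ± 1.56 and 31.9 ± 1.91 CPM (adjusted p = 0.766).

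MRPS25 (ENSDARG00000041306) and mrps26 (ENSDARG00000039719), which encode small subunit proteins with no bacterial counterpart, both fell. MRPS25 read 54.9, 49.8 and 47.7 CPM in control libraries 1, 2 and 3, against 41.4, 43.0 and 38.0 CPM after exposure. The values of mrps26 were 24.0, 23.8 and 22.9 CPM and, after exposure, 17.5, 19.1 and 16.9 CPM. Neither gene had an exposed value within the control range. The log2 fold changes were -0.32 ± 0.079 and -0.40 ± 0.056 SE (edgeR adjusted p = 6.08e-04 and 0.00126). The other 8 genes of this origin named for the small subunit did not pass, counting MRPS30, whose product sits in the large subunit. They include MRPS22, variants of which cause mitochondrial disease in humans (26.6 ± 3.56 and 25.0 ± 0.321 CPM, adjusted p = 0.504), and MRPS34 (51.1 ± 2.07 and 49.9 ± 0.213 CPM, adjusted p = 0.727).

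The 1 member that rose was mrps18b (ENSDARG00000007065), of the 3-gene S18 family, whose products take different places on the mammalian mitoribosome. Control libraries 1, 2 and 3 held 22.2, 23.5 and 22.7 CPM of mrps18b and exposed libraries 1, 2 and 3 held 26.4, 27.9 and 29.3 CPM. The groups did not overlap, and the log2 fold change was 0.29 ± 0.050 SE (edgeR adjusted p = 0.00844). Without exposed library 3 the adjusted p was 0.0617. In a RefSeq table of another assembly its span overlaps that of ABCF1, a gene for an ATPase of cytosolic translation, which was at 168 ± 1.83 and 179.8 ± 4.67 CPM (adjusted p = 0.0645). Whether reads were shared was not tested. In the same family mrps18c, given above, and MRPS18A (43.6 ± 2.14 and 41.1 ± 0.825 CPM, adjusted p = 0.360) did not pass. MRPS30 was at 43.1 ± 2.88 and 39.2 ± 1.76 CPM (adjusted p = 0.136). MRPS16, a gene with a bacterial counterpart, was higher in each exposed library than in any control library, at 11.3 ± 0.804 and 13.5 ± 0.865 CPM. It did not pass (adjusted p = 0.115).

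**Figure D4:**
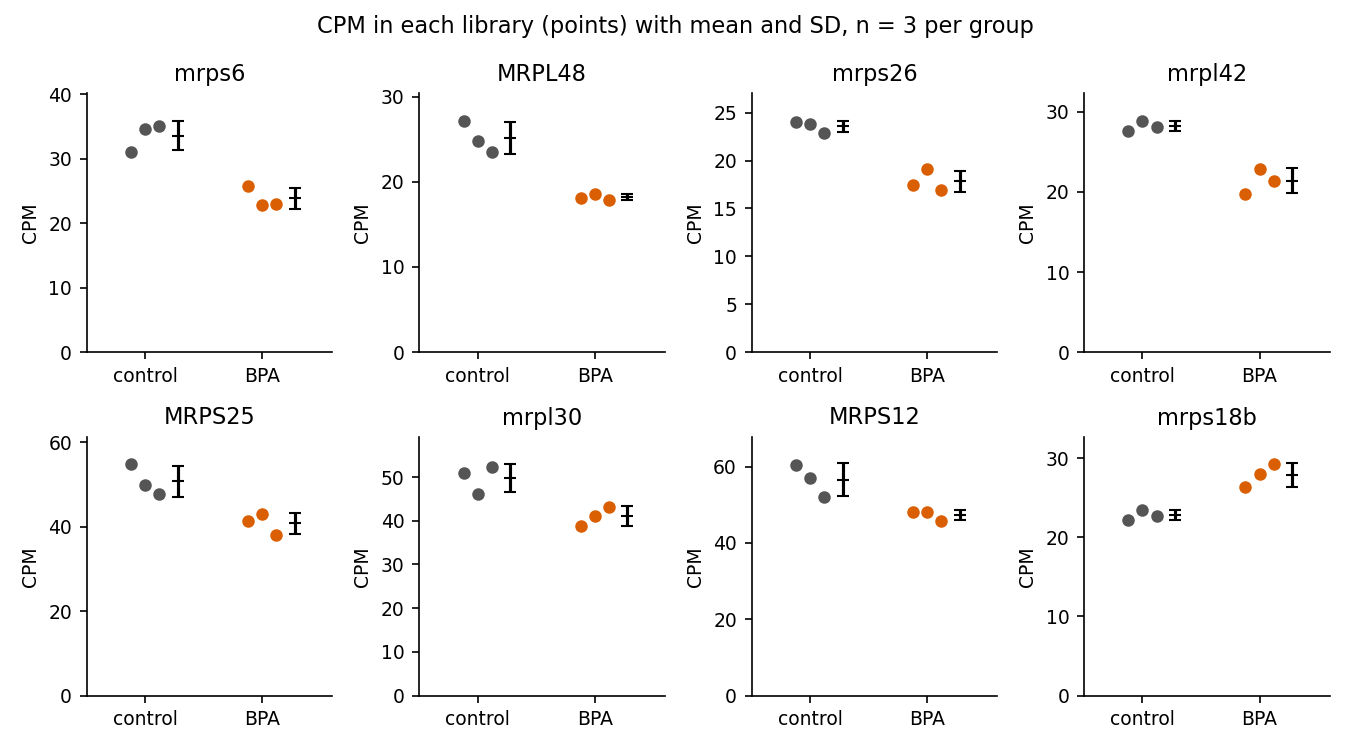
CPM (y axes from 0) in each control and BPA library (points) with mean and SD (bars, n = 3) for the 7 members called lower with all libraries and in each fit without 1 of the 6, and for mrps18b, the 1 member called higher. In all 8 panels the groups do not overlap, and the means go from 33.6 to 23.9 CPM for mrps6 and from 22.8 to 27.9 CPM for mrps18b.

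Among large subunit genes the lowest fold was that of MRPL48 (ENSDARG00000035167). Its product belongs to the central protuberance, a knob that contacts the tRNAs and holds many proteins found only in mitochondria. MRPL48 read 27.1, 24.8 and 23.4 CPM in control libraries 1, 2 and 3, against 18.1, 18.6 and 17.9 CPM after exposure. All exposed values lay below all control values (log2 fold change -0.47 ± 0.064 SE, edgeR adjusted p = 2.24e-04). MRPL38 of the same knob read 62.7, 54.9 and 48.5 CPM, against 44.4, 43.9 and 50.5 CPM after exposure. Here the groups overlapped, with exposed library 3 above control library 3 (log2 fold change -0.26 ± 0.13 SE, adjusted p = 0.00814). Its call ended without control library 1 (0.0917) or exposed library 2 (0.0737). Also of this group, MRPL40 (26.8 ± 0.596 and 26.2 ± 1.86 CPM, adjusted p = 0.816) and MRPL46 (20.9 ± 1.66 and 20.2 ± 0.229 CPM, adjusted p = 0.732) did not pass.

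Of 4 genes whose products ring the exit of the peptide tunnel, picked after values were seen, 2 fell and 2 did not pass. Among all genes tested 18.7% were lower. MRPL22 (ENSDARG00000109961) read 31.6, 29.9 and 26.0 CPM in control libraries 1, 2 and 3, against 19.7, 23.7 and 25.2 CPM after exposure. MRPL47 (ENSDARG00000075743), the counterpart of bacterial protein L29, read 34.01, 29.0 and 33.4 CPM, against 25.7, 24.3 and 28.4 CPM after exposure. The groups did not overlap for either gene, though control library 3 and exposed library 3 of MRPL22 lay close together. Their log2 fold changes were -0.35 ± 0.13 and -0.29 ± 0.10 SE (edgeR adjusted p = 0.00494 and 0.00810). Leaving out exposed library 1 ended the call of MRPL22 (0.0618), and leaving out exposed library 2 ended that of MRPL47 (0.0741). MRPL23 was at 34.5 ± 3.77 and 29.7 ± 3.00 CPM (adjusted p = 0.0596) and passed without control library 1 (0.0142) or exposed library 3 (0.0242). MRPL24 was at 47.8 ± 2.71 and 45.8 ± 3.79 CPM (adjusted p = 0.553). MRPL45, which in humans ties the ribosome to the inner membrane, was not counted among the 4. It was at 22.96 ± 0.818 and 21.6 ± 1.72 CPM (adjusted p = 0.506).

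The stalk that recruits translation factors is formed by the products of MRPL10 and MRPL12 on a base that includes that of MRPL11. MRPL12 (ENSDARG00000038768) read 90.3, 72.5 and 88.0 CPM in control libraries 1, 2 and 3, against 72.6, 73.1 and 74.5 CPM after exposure. Control library 2 lay below all 3 exposed libraries, which were close to each other, and the other control libraries lay above them. The log2 fold change was -0.19 ± 0.10 SE (edgeR adjusted p = 0.0211), and MRPL12 passed in 1 of the 6 fits without 1 library, the one without control library 2 (2.34e-04). In the other 5 fits its adjusted p reached up to 0.128. MRPL10 was at 17.6 ± 1.28 and 14.6 ± 1.37 CPM without overlap (adjusted p = 0.0685), and MRPL11 at 38.7 ± 4.46 and 36.7 ± 3.38 CPM (adjusted p = 0.519).

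Of 4 genes of the rRNA-binding core that the bacterial ribosome shares, picked after values were seen, 0 passed. Of all 29 large subunit members with a bacterial counterpart, 6 (20.7%) were lower, 0 higher and 23 did not pass. Among all genes tested 38.8% were called, 18.7% lower and 20.1% higher. MRPL2, near the site of peptide bond formation, read 82.7, 80.0 and 77.7 CPM in control libraries 1, 2 and 3, against 86.5, 86.5 and 87.3 CPM after exposure. It was the 1 large subunit gene whose exposed values all lay above the control values (log2 fold change 0.11 ± 0.027 SE, edgeR adjusted p = 0.0792, or 0.0466 without control library 1). MRPL16 was at 89.4 ± 3.55 and 92.4 ± 1.04 CPM (adjusted p = 0.501). MRPL3 was at 40.5 ± 1.38 and 37.9 ± 1.37 CPM and MRPL4 at 44.8 ± 0.600 and 45.1 ± 2.53 CPM, with adjusted p of 0.318 and 0.919. At an unadjusted p under 0.05 in edgeR, 1 of the 4 was higher, and DESeq2 called 0.

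Among the other large subunit genes, mrpl42 (ENSDARG00000079391), which has no bacterial counterpart, read 27.7, 28.9 and 28.1 CPM in control libraries 1, 2 and 3, against 19.8, 22.9 and 21.4 CPM after exposure. For mrpl30 (ENSDARG00000069850), which has one, the values were 50.9, 46.2 and 52.4 CPM and, after exposure, 38.7, 41.1 and 43.2 CPM. Neither gene overlapped between groups. The log2 fold changes were -0.40 ± 0.063 and -0.28 ± 0.072 SE (edgeR adjusted p = 6.19e-04 and 0.00194). MRPL44, a gene for an RNase III-like protein linked to human cardiomyopathy, went from 42.9 ± 3.09 to 36.7 ± 2.33 CPM (adjusted p = 0.0191), and its call ended without control library 3 (0.0987), exposed library 1 (0.0991) or exposed library 2 (0.0904).

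Another 3 calls of the large subunit were close to the threshold. They were those of mrpl54 (19.8 ± 2.72 to 16.2 ± 0.625 CPM), MRPL17 (26.0 ± 2.35 to 22.1 ± 0.416 CPM) and MRPL14 (26.3 ± 1.25 to 22.6 ± 0.915 CPM), with edgeR adjusted p of 0.0406, 0.0472 and 0.0493. MRPL17 and MRPL14 are counterparts of bacterial proteins, and mrpl54 is not. Each call ended in 4 or 5 of the 6 fits without 1 library, all of them including those without exposed library 1, 2 or 3. For mrpl58, whose human product frees chains from stalled ribosomes, the values were 7.35 ± 1.16 and 5.98 ± 0.931 CPM. At a log2 fold change of -0.30 ± 0.18 SE it did not pass (adjusted p = 0.207).

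In all, 7 of the 18 calls held in each of the 6 fits without 1 library, those of mrps6, MRPL48, mrpl42, mrps26, MRPS25, mrpl30 and MRPS12. The other 11 were lost in at least 1 fit. Of the 56 members that did not pass, 8 gained a call in at least 1: MRPL2, MRPL23, MRPL32, MRPL33, MRPL41, mrpl52, MRPS7 and MRPS24. Missing the threshold does not show that a member did not change. For 54 of the 56, the approximate 95% interval of the log2 fold change lay within 0.5 of 0 on both sides, the exceptions being mrpl58 (-0.67 to 0.073) and MRPS16 (-0.0035 to 0.51). The intervals of the uncalled genes nearest 0 were -0.14 to 0.14 for MRPL28 and -0.26 to 0.26 for MRPL49 in the large subunit. In the small subunit they were -0.17 to 0.22 for MRPS17 and -0.16 to 0.10 for MRPS34.

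Genes for mitoribosomal proteins under other names were 6, counting kgd4, formerly mrps36, whose product is now known as a subunit of a citric acid cycle enzyme complex. In edgeR 0 of the 6 passed, 0 had an unadjusted p under 0.05, and DESeq2 called 0. DAP3, a gene for a GTP-binding small subunit protein, was at 48.7 ± 2.06 and 49.5 ± 1.99 CPM (SD, n = 3, edgeR adjusted p = 0.814), and GADD45GIP1, of the large subunit, at 51.1 ± 3.78 and 53.2 ± 1.24 CPM (adjusted p = 0.532). For ptcd3, which encodes an RNA-binding small subunit protein, the values were 37.9 ± 3.40 and 39.4 ± 1.11 CPM (adjusted p = 0.600). The small subunit genes AURKAIP1 and chchd1, and kgd4, had adjusted p of 0.928, 0.129 and 0.865. The median log2 fold change of the 6 was 0.040.

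Of 23 factors that build the mitoribosome, 4 were lower, 3 higher and 16 not past the threshold (median log2 fold change -0.11). Both shares were below those of all genes tested, 18.7% lower and 20.1% higher. The assembly GTPase gene MTG2 went from 14.9 ± 0.859 to 11.4 ± 1.01 CPM (edgeR adjusted p = 0.0127), and its call ended without exposed library 1 (0.0699) or 2 (0.0580). The values of fastkd2, whose product binds the large subunit rRNA, were 41.8 ± 0.849 and 31.9 ± 3.47 CPM (adjusted p = 2.36e-04). Higher were TFB1M, a small subunit rRNA methyltransferase gene (8.79 ± 0.847 to 13.04 ± 2.06 CPM, adjusted p = 0.00190), and RPUSD4, a pseudouridine synthase gene (8.12 ± 0.635 to 11.4 ± 0.442 CPM, adjusted p = 0.00676).

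Translation factor genes gave 2 lower, 1 higher and 11 not past the threshold among 14 (median -0.076). At 14.3% lower and 7.14% higher, they were below the 18.7% and 20.1% of all genes tested. The 14 include ptcd3, which was also counted above among genes for mitoribosomal proteins under other names. MTRFR, a gene for a rescue factor of stalled ribosomes, fell from 3.95 ± 0.803 to 1.86 ± 0.294 CPM (edgeR adjusted p = 0.00171). OXA1L, the gene of the insertase that receives nascent chains, went from 48.4 ± 5.39 to 40.8 ± 3.49 CPM (adjusted p = 0.0140). It did not pass once control library 1 (0.0662) or 3 (0.0564) was left out, nor without exposed library 1 (0.119). The methionyl-tRNA formyltransferase gene mtfmt was higher, at 7.87 ± 0.725 and 10.6 ± 1.48 CPM (adjusted p = 0.0241), and did not pass without control library 1 (0.0543) or 2 (0.0651) or exposed library 1 (0.0632) or 2 (0.180). Of 16 mitochondrial aminoacyl-tRNA synthetase genes, which charge the tRNAs, 2 fell and 14 did not pass (median -0.033). Their lower share, 12.5%, was also below that of all genes tested. SARS2 was at 9.96 ± 0.560 and 6.28 ± 0.745 CPM (adjusted p = 0.00113). EARS2 was at 7.84 ± 1.82 and 5.12 ± 0.756 CPM (adjusted p = 0.0113) and did not pass once control library 1 (0.0934) or exposed library 3 (0.0784) was left out.

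The mRNAs that these ribosomes translate were called in both directions, with 5 of 13 mitochondrially encoded genes lower, 5 higher and 3 not past the threshold. Each share was 38.5%, against 18.7% lower and 20.1% higher over all genes tested. Their sums were 61521 to 65478 CPM in control libraries, levels at which small folds can pass. MT-CYB and MT-ATP6, both lower, had log2 fold changes of -0.11, and MT-ND1, higher, had 0.082. The first 2 calls ended without exposed library 3 (edgeR adjusted p = 0.0501 and 0.0845). That of MT-ND1 ended without control library 3 (0.157) or exposed library 1 (0.180). Lower were the cytochrome oxidase genes MT-CO2 (9319 ± 266 to 7549 ± 190.0 CPM, edgeR adjusted p = 4.78e-11) and MT-CO3 (10396 ± 288 to 9407 ± 262 CPM, adjusted p = 3.31e-05). The complex I gene MT-ND5 was higher (1340.0 ± 67.4 to 1627 ± 81.5 CPM, adjusted p = 1.30e-07). The ATP synthase gene mt-atp8 was also higher (63.9 ± 7.85 to 86.1 ± 19.7 CPM, adjusted p = 0.0490), though not past the threshold without control library 1 (0.349) or 3 (0.309). The mt-atp8 gene overlaps MT-ATP6, which was lower (edgeR adjusted p = 0.00407). Whether the counting split their reads was not tested. Mitochondrial rRNAs were not analysed here.

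Cytosolic ribosomal protein genes, taken by name, gave 78 of 83 lower, 2 higher and 3 not past the threshold, with a median log2 fold change of -0.22. The name rule also took rps19bp1, the gene of a binding protein. Among all genes tested 18.7% were lower and 20.1% higher. Summed, the cytosolic genes lay between 153924 and 164961 CPM in control libraries, against a control mean of 2575 CPM for the 74 members. Smaller folds can pass at such levels, so the shares called in the 2 lists are not directly comparable. The difference between the cytosolic and mitochondrial medians was not tested.

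**Figure D5:**
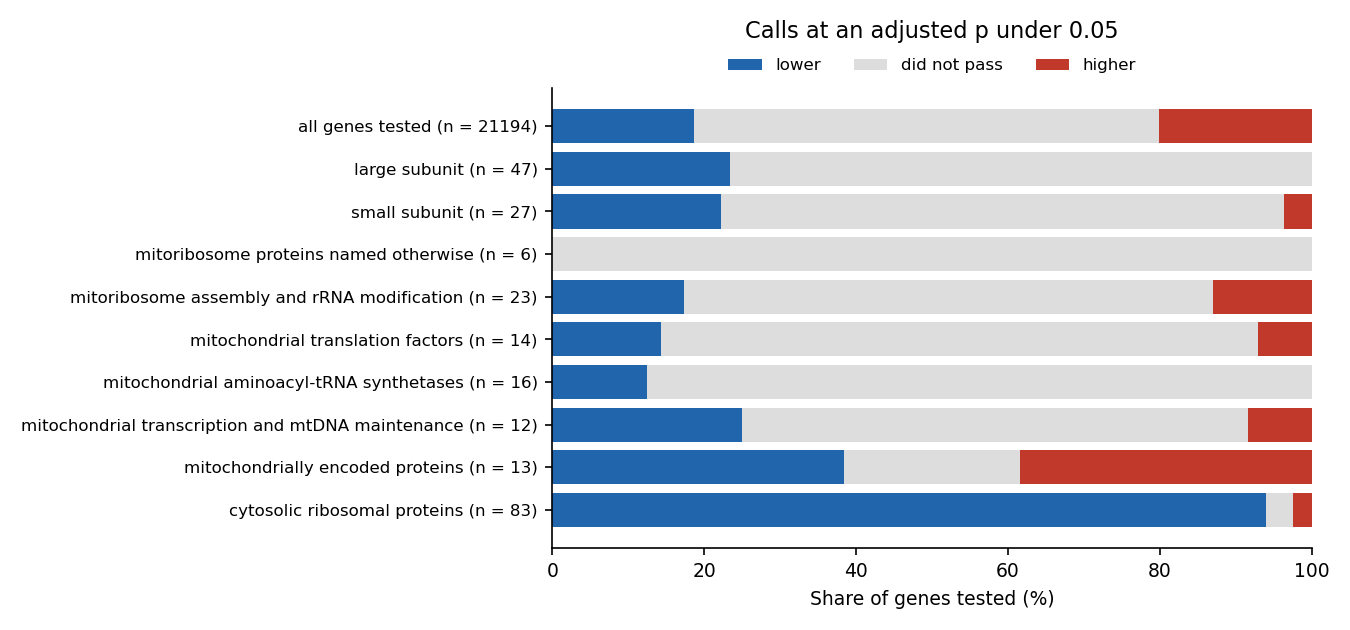
Share of tested genes (x axis, %) called lower (blue), not past the threshold (grey) and called higher (red) at an adjusted p under 0.05, for all genes and for each list, with the number of genes tested beside its name. The lower share is 23.4% for the large subunit, 22.2% for the small subunit, 18.7% for all genes tested and 94.0% for cytosolic ribosomal protein genes. The lists differ in level, so their shares are not directly comparable.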

How the data were processed

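The authors deposited raw counts for 32520 Ensembl genes in 6 libraries, not normalized. The submitters' processing notes name FastQC, build GRCz11, STAR 2.7.10a, featureCounts 2.0.6 and R 4.4.2. Strand setting, annotation release and the treatment of multi-mapping reads are not given in the sources used here. Of nonzero counts, 76.1% to 81.7% per library were even, so each mate of a pair may have been counted, and counts may overstate fragments. A table of identifiers left 3319 genes without a symbol. In a RefSeq table of another assembly (GRCz12tu), used for names and neighbours only, 23 of the tested members overlap another gene, 4 of them called.

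Counts were tested with edgeR 4.0.16 in R 4.3.3 (robust quasi-likelihood F-test, TMM scaling, filterByExpr with a minimum count of 10 and a minimum total of 15), with Benjamini-Hochberg adjustment across the 21194 genes tested and a threshold of 0.05. On simulated data, with far fewer changed genes than were called here, the test missed most of the small changes that had been set. Those changes were set in genes picked at random, with the spread usual for genes of their level. The spread between replicates (edgeR's biological coefficient of variation) was 0.141 in common over all genes and 0.0712 at the median of members. The simulation therefore does not give the power for members. CPM use TMM-scaled library sizes. SE values belong to differences of mean log2 CPM (prior count 2), and approximate 95% intervals come from the F statistic. The floor of 3 counts covers counting error only.

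Members and lists were chosen with earlier results of these data known. In each subunit the rule named the 6 called members with the largest fold in each direction, the 3 of highest mean CPM and the 2 uncalled nearest 0, plus 13 fixed members, members left out by the filter and members whose call changed without 1 library. That gave 40 tested members. From each pathway list it named the 2 called genes with the largest fold in each direction. Other genes in the text, and the grouping by place on the ribosome, were chosen after values were seen. Without coding lengths or sequences, levels were not compared between genes, and promoters were not searched. Alternatives were other scalings, no filter, DESeq2 1.42.0, a replicate block, halved counts, subunits by structure and leaving out each library.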

Additional observations from a re-analysis of the deposited data

How the results depend on the processing

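Leaving out 1 library at a time gave 10 to 18 members lower and 0 to 2 higher, with 4 to 11 lower and 0 to 1 higher in the large subunit and 5 to 7 lower and 0 to 1 higher in the small. Over all genes 6712 to 8063 were called in those fits, and subunit medians ran from -0.14 to -0.10 (large) and from -0.13 to -0.085 (small). Under the other settings tried (DESeq2 size factors, upper quartile scaling, library size alone, no filter, DESeq2, halved counts, the replicate block), 14 to 18 members were lower and 1 higher. Under all these settings 0 called members changed sign, and the median of all genes stayed between -0.0076 and 0.0078. With subunits assigned by structure the ratio of large to small was 2.08 in the control and 2.10 in the exposed libraries, by construction, since MRPS30 and MRPS18A then count as large.

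Members near 0 changed sign. MRPL28 was at -0.00091 with DESeq2 size factors, -0.0032 with library size alone and -0.00061 in DESeq2. MRPL49 was at 0.00057 with upper quartile scaling, 0.0010 with no filter and 0.0055 with the replicate block. Without 1 library the log2 fold changes ran from -0.063 to 0.045 for MRPL28, -0.083 to 0.088 for MRPL49, -0.025 to 0.083 for MRPS11, -0.0083 to 0.061 for MRPS17, -0.14 to 0.023 for MRPL11 and -0.18 to 0.020 for MRPS22. The causes were not tested.

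Same-numbered libraries did not deviate together (correlations across genes of -0.0131, -0.00375 and 0.0119), and they share only a number. With the replicate block 18 members were called, 16 of them shared with the fit without it. MRPL14 (edgeR adjusted p = 0.0578) and MRPL17 (0.0578) were lost, and MRPL23 (0.0331) and MRPL33 (0.0362) were gained. DESeq2 called 15 members, all among the 18, and missed mrpl54 (0.0618), MRPL17 (0.0674) and MRPL14 (0.0640).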

Other observations

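Regulators of mitochondrial biogenesis were called in both directions, with 3 of 12 tested genes higher, 3 lower and 6 not past the threshold. Those shares, 25% higher and 25% lower, stand against 20.1% and 18.7% of all genes tested. The coactivator gene PPARGC1A was at 7.30 ± 2.56 and 11.3 ± 0.858 CPM and its relative ppargc1b at 23.8 ± 4.50 and 38.3 ± 3.81 CPM (SD, n = 3, edgeR adjusted p = 0.00574 and 2.23e-06). ESRRA, the gene of an orphan receptor that these coactivators work with, rose from 10.7 ± 1.88 to 18.1 ± 1.90 CPM (adjusted p = 2.39e-05). Among genes of transcription factors known to act on promoters of nuclear mitochondrial genes, NRF1 fell from 43.3 ± 2.48 to 36.7 ± 0.401 CPM (adjusted p = 0.00842). GABPA fell from 34.97 ± 1.83 to 28.7 ± 1.14 CPM (adjusted p = 0.00462). A gene named YY1 (ENSDARG00000027978) fell from 31.7 ± 2.52 to 25.4 ± 0.518 CPM (adjusted p = 0.00283). Another gene named YY1 (ENSDARG00000042796) did not pass (log2 fold change -0.024, edgeR adjusted p = 0.804). The 6 calls of this list held in each of the 6 fits without 1 library.

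Of 12 genes of mitochondrial transcription and DNA upkeep, 3 fell, 1 rose and 8 did not pass. These shares, 25% lower and 8.33% higher, stand against 18.7% and 20.1% of all genes tested. TFAM, whose product packages mitochondrial DNA, fell from 39.4 ± 1.53 to 29.5 ± 3.03 CPM (edgeR adjusted p = 1.06e-04). LRPPRC, whose product stabilises mitochondrial mRNAs, rose from 93.3 ± 5.64 to 125 ± 4.35 CPM (adjusted p = 7.55e-08). The gene of its partner, SLIRP, was at 48.3 ± 2.25 and 42.8 ± 3.01 CPM (adjusted p = 0.0475), not past the threshold without control library 2 (0.170) or exposed library 1 (0.230) or 3 (0.137). The DNA polymerase gene POLG was at 10.7 ± 1.57 and 7.72 ± 1.37 CPM (adjusted p = 0.0182) and did not pass once control library 3 (0.106) or exposed library 2 (0.156) was left out.

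Split by origin, 28 members found only in mitochondria had 7 lower, 0 higher and a median log2 fold change of -0.13. At an unadjusted p under 0.05 in edgeR, 9 of them were lower and 0 higher, while 4707 of all 21194 genes tested were lower and 5001 higher. The 46 members with a bacterial counterpart had 10 lower, 1 higher and a median of -0.093. At the adjusted threshold the lower shares were 25% (mitochondria only) and 21.7% (bacterial counterpart), against 18.7% of all genes tested. The difference between these groups was not tested. Across the 74 members the log2 fold change had a Pearson r of 0.105 with the log2 of the mean CPM. Its Spearman rho with the mean CPM was 0.0959. Both describe genes of the same libraries, with gene length not corrected.

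Among genes whose RefSeq spans overlap called members, WWC1 (at MRPL22) was at 3.98 ± 0.733 and 5.40 ± 0.242 CPM (edgeR adjusted p = 0.0945) and NDUFB5 (at MRPL47) at 108 ± 3.45 and 107 ± 3.24 CPM (adjusted p = 0.922). The span of mrps26 overlaps those of LOC141377134 and LOC141377133, for which no values were matched. Whether reads were shared was not tested.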
